A study of Arabidopsis thaliana with 18 samples.

Results

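Etiolated seedlings were followed from 60 to 150 min after their transfer from darkness to white light (WL). All 3 libraries collected at 150 min were compared with all 3 collected at 60 min, which are 6 of the 18 libraries of the time course, and 16747 of the 34212 genes in the files could be tested. The question was which genes were first raised or lowered after the first hour of light, and which genes raised in that hour fell back. Every library was made from whole 5-day-old seedlings of the Arabidopsis ecotype Col-0, kept in constant darkness on medium without sucrose once germination had been induced in light. Each library was made from a pool of seedlings and is described as a biological replicate. The 60 and 150 min groups differ in the length of WL before collection. The dark, 30 and 360 min groups (3 libraries each) were used to place the genes before and after the step, and the 15 min group entered the fit. There was no dark group at 60 or 150 min, and light exposure and elapsed time cannot be told apart.

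Deetiolation is the passage from growth in darkness, which lives on seed reserves and goes into hypocotyl elongation, to photosynthetic growth. Light activates phytochromes and cryptochromes, which remove the PIF transcription factors and stabilise HY5 and related activators. Nuclear genes of the antenna, the photosystems and carbon fixation are then transcribed while plastids in the cotyledons become chloroplasts. Flavonoid and early light-inducible protein genes are known for their response to light that the young chloroplast cannot yet use. MYB-like genes of the morning clock are known as early light-responsive genes whose transcripts are transient.

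The libraries were unequal in depth. The 3 libraries at 60 min held 11371571, 8919835 and 3577432 estimated counts, of which 82.4%, 65.5% and 3.37% came from the 23S ribosomal RNA of the plastid. The 3 libraries at 150 min held 15876155, 16156302 and 13213131, with 40.9%, 67.9% and 83.0% from that RNA. Outside it, 1999671 to 3456720 counts remained per 60 min library and 2252711 to 9387795 per 150 min library. The third 60 min library thus stood apart by its low ribosomal share and its low total. Genes whose call changed without it, and uncalled genes named below that moved by more than their standard error, are given both ways. So are list medians that moved by more than the spread between replicates. Smaller moves are not all given, and some changed sign, as in PIF3 (to 0.40), BBX24 (0.19), HY5 (-0.04) and CSD1 (-0.05). Replicates varied widely, with a biological coefficient of variation of 0.54 over all 18 libraries. Levels below are normalized counts, that is, gene counts scaled to one effective library size by edgeR's TMM method, and fold changes are log2 values with their standard errors (SE).

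From 60 to 150 min, 20 of 16747 genes rose (0.119%) and 5 fell (0.0299%) at a Benjamini-Hochberg adjusted p below 0.01 from the quasi-likelihood fit of edgeR. The median log2 fold change of all tested genes was -0.01. At an adjusted p below 0.05 the counts were 48 higher (0.287%) and 17 lower (0.102%), and at an unadjusted p below 0.05 they were 805 higher (4.81%) and 637 lower (3.8%). All 3 libraries at 150 min lay above all 3 at 60 min in 1215 genes (7.26%), and below them in 904 genes (5.4%). With DESeq2 in place of edgeR, 85 genes were higher and 49 lower, so that 63.4% of the calls were upward against 80%. A fit on the 60 and 150 min libraries alone called 0 genes with edgeR, where 498 higher and 414 lower had an unadjusted p below 0.05. Within both groups, many genes followed the share of plastid 23S RNA, which was 3.37% to 82.4% at 60 min and 40.9% to 83.0% at 150 min. Levels rose with that share in both groups in 1622 genes (9.69%), fell with it in both in 1519 (9.07%) and took opposite orders in 727. In both groups the share ran opposite to the counts outside that RNA, so that share and depth cannot be told apart in these orders. With the share as a covariate, an alternative chosen after seeing the data, 78 genes were higher and 20 lower, among them all 25 named here with the same sign. In RNA from whole seedlings, fewer cells of a type and less RNA per cell cannot be told apart.

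**Figure D1:**
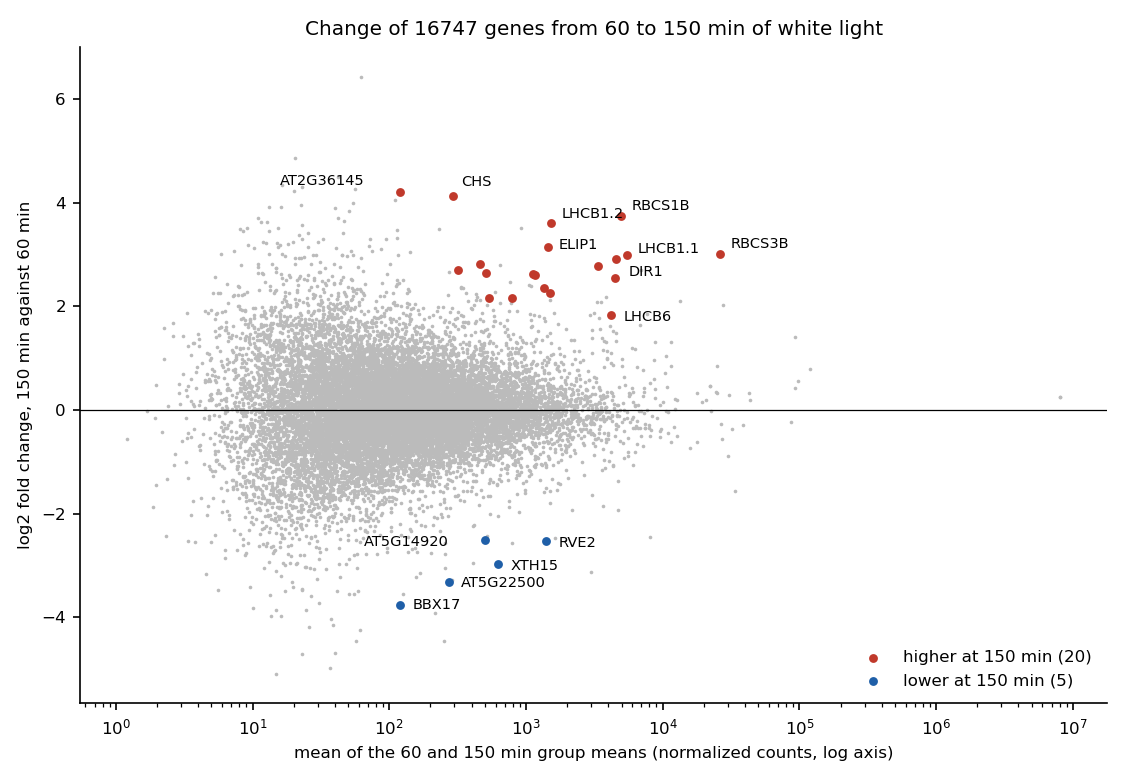
Each point is 1 of 16747 genes, placed by its level (mean of the 60 and 150 min group means in normalized counts, log axis) and by its log2 fold change from 60 to 150 min of WL. The 20 genes that rose (red) lie between 1.84 and 4.21 and the 5 that fell (blue) between -3.76 and -2.51, and most other genes (grey) lie around 0.

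Of the 20 genes that rose, 16 had not passed the test between dark and 60 min and were newly raised in that sense. Many of them stood above the dark already: 14 of the 16 had positive values between dark and 60 min, with a median log2 fold change of 1.04, and 10 had an unadjusted p below 0.05 upward (6.68% of all genes). CHS (log2 fold change 2.39, adjusted p = 0.0198) was among the nearest to the threshold. A fit without the third 60 min library called 11 genes higher, 10 of them among the 20, and 7 of the 11 counted as newly raised. The other 4 of the 20 in the main fit, LHCB1.1, ELIP1, GLDP1 and RBCS1B, had already risen in the first hour, when 134 genes were called higher (0.8%), and rose further. Of the 8 genes called lower at 60 min than in the dark (0.0478%), 0 rose in the step with edgeR or with DESeq2, and 1 had an unadjusted p below 0.05 upward in edgeR. Of the 5 genes that fell, BBX17, AT5G14920 and AT5G22500 were newly lowered, XTH15 had fallen before and was lowered further, and RVE2 fell back after a rise. These classes use the 60 min libraries on both sides, and they describe where each gene stood.

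CHS, which encodes chalcone synthase, the first committed enzyme of flavonoid synthesis, was one of the 2 genes with the largest rise. Its normalized counts were 56.1, 21.7 and 21.5 at 60 min and 562, 609 and 486 at 150 min, against a mean of 6.28 in the dark. The 3 later libraries lay close to each other and far above the 3 earlier ones. Groups without overlap were a condition for naming genes by fold, so their separation is no added support, here or below. The log2 fold change was 4.13 (SE 0.50, adjusted p = 0.000298), a 17.5-fold rise. AT2G36145, an uncharacterized protein gene, rose from 14, 9.85 and 12.9 to 92.3, 252 and 343 normalized counts. Its groups were also apart, with a wide spread at 150 min, and its log2 fold change was 4.21 (SE 0.60, adjusted p = 0.00106).

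ELIP1 encodes an early light-inducible protein of the thylakoid, related to the antenna proteins and known to protect against excess light during greening. Its values were 245, 349 and 288 at 60 min and 2310, 2867 and 2647 at 150 min. Within each group they agreed within a narrow range, and the log2 fold change was 3.15 (SE 0.38, adjusted p = 0.000298). In the dark its mean was 22, so that ELIP1 rose in the first hour and rose again in the step. SEP1, another stress enhanced thylakoid protein gene, stood at 172, 274 and 143 at 60 min, close to its dark mean of 171. At 150 min it reached 866, 840 and 920 normalized counts (log2 fold change 2.16, SE 0.35, adjusted p = 0.00281).

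Antenna genes encode the chlorophyll-binding proteins that collect light for the photosystems, and LHCB1 is the major antenna protein of photosystem II. LHCB1.1 (CAB2) stood at 1423, 1310 and 937 at 60 min and at 5680, 10040 and 13390 at 150 min. Every later library exceeded every earlier one, with a log2 fold change of 2.99 (SE 0.40, adjusted p = 0.000588). The neighbouring gene LHCB1.2 (CAB3) went from 259, 323 and 107 to 2585, 3037 and 2810 (log2 fold change 3.62, SE 0.47, adjusted p = 0.000588). LHCB1 copies are nearly identical, and the assignment of reads among them is uncertain. Summed over the 5 LHCB1 genes, the level was 15860 ± 9716 (SD, n = 3) at 60 min and 69080 ± 25760 (SD, n = 3) at 150 min, a ratio of 4.36 that was 3.27 without the third 60 min library. LHCB6 encodes a minor antenna protein of photosystem II and had the smallest rise among the 20, from 2109, 1925 and 1504 to 5623, 7837 and 6319 (log2 fold change 1.84, SE 0.32, adjusted p = 0.00603).

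The small subunit of Rubisco, the carbon-fixing enzyme of the chloroplast, is encoded by 4 RBCS genes in the nucleus. RBCS1B rose from 463, 924 and 686 to 11630, 11010 and 5232 normalized counts. Its lowest value at 150 min was above its highest at 60 min, and its log2 fold change was 3.75 (SE 0.53, adjusted p = 0.00106). RBCS3B rose from 6391, 6665 and 4329 to 45290, 54050 and 40220 (log2 fold change 3.0, SE 0.49, adjusted p = 0.0029). Reads of the RBCS copies are also shared, and their sum rose from 62590 ± 30510 to 212200 ± 37840 (SD, n = 3 each), a ratio of 3.39 that was 2.72 without the third 60 min library. CA1, the chloroplast carbonic anhydrase, went from 603, 666 and 1301 to 5263, 5778 and 6590 (log2 fold change 2.78, SE 0.43, adjusted p = 0.00223). GLDP1 encodes the P-protein of glycine decarboxylase, the mitochondrial enzyme of photorespiration, and rose from 1612, 1389 and 942 to 6033, 7888 and 8963 (log2 fold change 2.54, SE 0.38, adjusted p = 0.00145).

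Among genes of the thylakoid and of plastid RNA, PSAH2, a subunit of photosystem I, was at 259, 321 and 354 at 60 min and at 1684, 2335 and 1746 at 150 min (log2 fold change 2.62, SE 0.40, adjusted p = 0.00172). CRB and CSP41A encode the paired chloroplast proteins that bind plastid transcripts. CRB stood at 459, 428 and 437 at 60 min, values close to each other, and at 2320, 2025 and 2458 at 150 min (log2 fold change 2.36, SE 0.32, adjusted p = 0.000588). CSP41A went from 59.6, 195 and 85.9 to 795, 858 and 757 (log2 fold change 2.81, SE 0.45, adjusted p = 0.00273). Its mean was 144 in the dark and 114 at 60 min, so that no rise was seen before the step. DAC, a gene required for the cytochrome b6f complex, reached 862, 1185 and 1824 from 364, 238 and 260 (log2 fold change 2.17, SE 0.38, adjusted p = 0.00566).

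**Figure D2:**
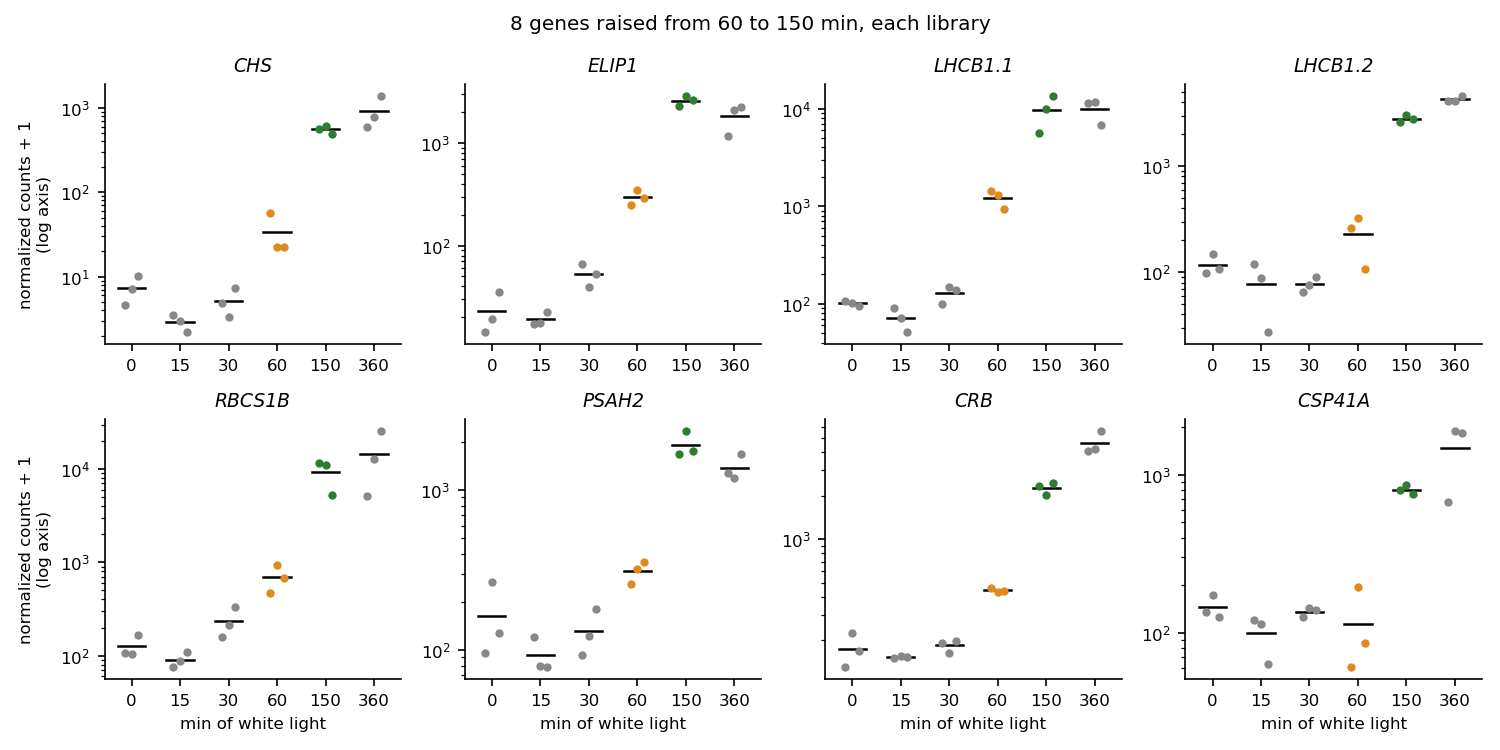
Normalized counts plus 1 (log axis) of 8 raised genes against min of WL, with 1 point per library (orange, 60 min; green, 150 min; grey, the other groups) and a bar at each mean. In every panel the 3 libraries of 150 min lie above the 3 of 60 min. ELIP1 and LHCB1.1 had already left the dark level at 60 min, while CSP41A had not.

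The remaining raised genes were less directly tied to photosynthesis. DIR1, a lipid-transfer protein known for long-distance signalling in systemic resistance, stood at 1198, 1545 and 478 normalized counts at 60 min and at 7860, 7434 and 8894 at 150 min (log2 fold change 2.91, SE 0.46, adjusted p = 0.00251). GASA6, a gibberellin-regulated peptide gene, had a dark mean of 381 and stood at 179, 116 and 127 at 60 min, a difference from the dark that did not pass the test. It then rose to 1189, 843 and 594 (log2 fold change 2.65, SE 0.43, adjusted p = 0.00273). GER1, a germin-like protein gene, rose from 547, 664 and 354 to 1968, 2503 and 3035 (log2 fold change 2.26, SE 0.36, adjusted p = 0.00273). AT1G15290, annotated as a tetratricopeptide repeat protein, and AT1G74730, a putative transmembrane protein, had log2 fold changes of 2.60 (SE 0.43) and 2.69 (SE 0.43). GER1 overlaps AT1G72600 by 931 bases and DIR1 overlaps AT5G48480 by 813 bases on the opposite strand in the TAIR10.1 annotation. The highest counts assigned to those partners at 60 or 150 min were 507 and 73, against 3306 for GER1 and 13206 for DIR1, and the assignment is not stated to use strand.

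Promoter windows of 5 of the 25 genes that passed are shown, picked because each holds CACGTG, which 18 of the 25 windows do not. CACGTG (the G-box) is known as a site of HY5 and PIF proteins, and GATAAG is known as the I-box of light-regulated promoters. The windows run from 250 bases before the annotated gene start to 50 bases from it on, 300 in all, in the RefSeq annotation of TAIR10.1, and are written 5′ to 3′ on the strand of the gene. Capitals mark CACGTG and GATAAG on either strand (CTTATC where GATAAG is on the other strand).
CHS, chr5:4488226-4488525, plus strand: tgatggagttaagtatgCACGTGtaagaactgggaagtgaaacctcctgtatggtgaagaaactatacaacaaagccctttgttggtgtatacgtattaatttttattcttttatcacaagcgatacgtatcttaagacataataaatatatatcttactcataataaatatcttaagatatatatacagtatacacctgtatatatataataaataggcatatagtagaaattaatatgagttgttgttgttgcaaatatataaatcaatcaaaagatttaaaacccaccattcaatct
ELIP1, chr3:8085620-8085919, minus strand: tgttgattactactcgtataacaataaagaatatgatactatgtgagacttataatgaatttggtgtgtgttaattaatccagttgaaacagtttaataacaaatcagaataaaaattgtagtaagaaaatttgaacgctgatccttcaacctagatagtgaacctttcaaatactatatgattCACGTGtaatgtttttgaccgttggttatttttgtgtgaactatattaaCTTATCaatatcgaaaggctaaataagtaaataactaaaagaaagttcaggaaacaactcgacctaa
PSAH2, chr1:19454548-19454847, plus strand: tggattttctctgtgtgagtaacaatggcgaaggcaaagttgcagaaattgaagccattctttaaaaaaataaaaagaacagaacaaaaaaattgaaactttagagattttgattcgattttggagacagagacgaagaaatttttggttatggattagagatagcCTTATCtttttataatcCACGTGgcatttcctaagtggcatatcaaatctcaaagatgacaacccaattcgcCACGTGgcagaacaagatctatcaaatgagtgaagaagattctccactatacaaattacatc
GLDP1, chr4:15931373-15931672, minus strand: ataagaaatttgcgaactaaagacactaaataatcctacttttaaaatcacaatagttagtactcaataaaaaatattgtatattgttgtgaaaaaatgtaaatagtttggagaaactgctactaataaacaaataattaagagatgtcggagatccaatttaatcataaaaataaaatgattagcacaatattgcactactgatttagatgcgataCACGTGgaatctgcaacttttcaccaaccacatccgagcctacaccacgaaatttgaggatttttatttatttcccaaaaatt
RVE2, chr5:14753039-14753338, minus strand: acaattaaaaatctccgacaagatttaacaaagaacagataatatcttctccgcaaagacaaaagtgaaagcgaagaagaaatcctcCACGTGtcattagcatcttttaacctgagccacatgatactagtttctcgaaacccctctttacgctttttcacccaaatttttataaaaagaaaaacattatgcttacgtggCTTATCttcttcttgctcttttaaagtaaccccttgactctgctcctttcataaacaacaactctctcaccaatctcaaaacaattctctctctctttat

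CACGTG was present in 6 of the 20 windows of raised genes (30%) and in 1 of the 5 of lowered genes (20%), against 9.19% of the 16288 windows of all tested protein-coding genes. GATAAG was present in 6 of 20 (30%) and 1 of 5 (20%), against 15.3%. TTGACC, the core of the W-box of WRKY proteins, was present in 3 of 20 (15%) and in 0 of 5, against 14.7%. AAAATATCT, the evening element of the clock, was present in 0 of 25 against 3.01%. PSAH2 held CACGTG at 2 places, the windows of CHS, ELIP1, GLDP1, LHCB6, AT1G15290 and RVE2 held 1 each, and GATAAG stood beside it in PSAH2, ELIP1, LHCB6 and RVE2. The windows of LHCB1.1 and LHCB1.2 held none of the 4 motifs. These are matches of letters in a short window, and binding was not measured.

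BBX17, a B-box zinc finger gene of the group with a CCT domain, had the largest fall among the genes that passed. Its normalized counts were 158, 238 and 271 at 60 min and 19.1, 13.3 and 16.3 at 150 min. The lowest earlier library was far above the highest later one, with a log2 fold change of -3.76 (SE 0.56, adjusted p = 0.00145), or 13.5-fold lower. Its dark mean was 320, and its difference between dark and 60 min did not pass the test. XTH15 encodes a xyloglucan endotransglucosylase/hydrolase, an enzyme that loosens and rebuilds the cell wall of elongating cells. It had a dark mean of 7459, stood at 1006, 1440 and 903 at 60 min and at 115, 122 and 193 at 150 min. The log2 fold change of the step was -2.98 (SE 0.45, adjusted p = 0.00172), which came on top of a fall in the first hour.

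RVE2 (CIR1) is a MYB-like transcription factor gene of the family of the morning clock regulators. It was the only gene that edgeR called higher at 60 min than in the dark and lower in the step, against 5 with DESeq2, and 0 without the third 60 min library. From a dark mean of 554, its mean was 2211 at 30 min, its values were 1374, 1584 and 4256 at 60 min, and they were 502, 360 and 385 at 150 min. The later values lay below all earlier ones and around the dark level (log2 fold change from dark to 150 min -0.41, adjusted p = 0.739). The fall in the step was -2.53 on the log2 scale (SE 0.42, adjusted p = 0.00377). AT5G22500, a fatty acyl-CoA reductase gene (FAR1) of the family that makes the fatty alcohols of suberin, stood at 231, 402 and 856 and then at 50, 76.3 and 16.3 (log2 fold change -3.33, SE 0.56, adjusted p = 0.00397). It overlaps AT5G22505 by 1310 bases on the opposite strand, to which 0 counts were assigned at 60 or 150 min. AT5G14920, a gibberellin-regulated family protein gene, went from 753, 414 and 1392 to 136, 170 and 144 (log2 fold change -2.51, SE 0.44, adjusted p = 0.00566). These 3 genes were highest in the third 60 min library, the one with the low ribosomal share. Without that library, RVE2 (log2 fold change -1.83, adjusted p = 0.0214), AT5G22500 (-2.67, 0.0299) and AT5G14920 (-1.96, 0.0364) no longer passed. XTH15 (-3.11, adjusted p = 0.00317) and BBX17 (-3.59, adjusted p = 0.00744) still did.

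**Figure D3:**
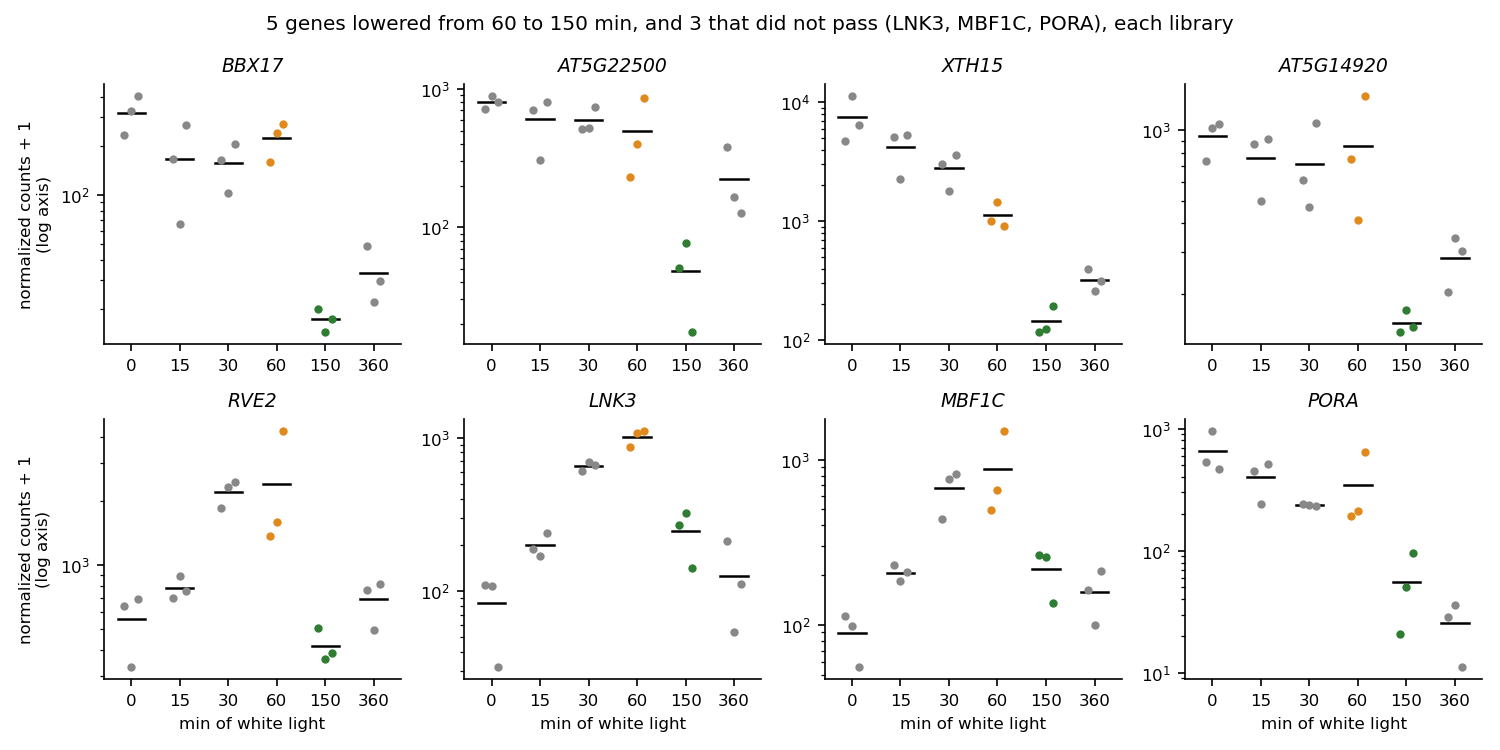
Normalized counts plus 1 (log axis) of lowered and falling genes against min of WL, with 1 point per library (orange, 60 min; green, 150 min; grey, the other groups) and a bar at each mean. BBX17 was low only at 150 and 360 min, the means of XTH15 decreased from dark to 150 min, and RVE2 and LNK3 were high at 30 and 60 min and lower at 150 min.

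With 2 libraries left in 1 group, many adjusted p-values crossed 0.01 and the log2 fold changes of some genes moved widely, from -2.81 to -1.83 in RVE2, from -3.79 to -2.67 in AT5G22500 and from 2.53 to 3.44 in CSP41A. CRB, LHCB1.1, LHCB1.2, ELIP1 and CHS passed whichever of the 6 libraries was left out, with a highest adjusted p of 0.00604. All 25 kept their sign. Without the second 60 min library the adjusted p was 0.0154 for PSAH2, 0.0271 for CA1, 0.0115 for GLDP1 and AT2G36145, 0.0249 for RBCS3B, 0.0306 for GASA6, 0.035 for AT1G15290 and 0.0517 for DAC. Without the third 60 min library it was 0.0239 for CSP41A, 0.0191 for GER1 and 0.0214 for SEP1, and without the first it was 0.01004 for RBCS1B. Without the second 150 min library it was 0.0564 for LHCB6, 0.0127 for DIR1, 0.0249 for AT1G74730 and XTH15, 0.0203 for BBX17 and 0.0573 for RVE2. Without the third 150 min library it was 0.0488 for AT5G14920 and 0.0399 for AT5G22500. These are the highest values per gene over the 6 fits. When the third 60 min library was left out, DIR1, CSP41A, AT1G74730, GASA6, GER1, SEP1, RBCS3B, AT1G15290, DAC and LHCB6 did not pass (adjusted p from 0.0115 to 0.0302), nor did RVE2, AT5G22500 and AT5G14920.

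A further 28 genes lay above their 60 min values and 12 below at an adjusted p between 0.01 and 0.05. Nearest to the threshold was RCA, which encodes Rubisco activase, at 1769, 2410 and 1361 and then 16890, 11840 and 7445 normalized counts (log2 fold change 2.71, SE 0.49, adjusted p = 0.01005). CHIL encodes a chalcone isomerase-like protein that helps chalcone synthase. It stood at 84.1, 13.8 and 22.9 and then at 454, 400 and 424 (log2 fold change 3.49, SE 0.64, adjusted p = 0.0106), and was picked after its values were seen, as was the next gene. AT1G76110 had at most 1 count in a library at 60 min and 71.8 to 172 normalized counts at 150 min. On the lower side, the 7 genes next in order of p whose groups did not overlap did not pass. AT4G25580, of a stress-response protein family, was at 473, 1503 and 664 and then at 245, 99.3 and 140 (log2 fold change -2.44, adjusted p = 0.0127). BCAT2, a branched-chain amino acid transaminase of the carbon starvation list, was at 2299, 2873 and 5155 and then at 608, 1079 and 1031 (-1.93, adjusted p = 0.0145). BT1, which encodes a BTB and TAZ domain scaffold protein, was at 1647, 902 and 1488 and then at 118, 298 and 268 (-2.57, adjusted p = 0.0193). The other 4 were CCL (adjusted p = 0.021), AT2G19660, FP6 (0.033) and PORA. PORA encodes the protochlorophyllide oxidoreductase of etiolated seedlings, whose transcript is known to disappear in light, and was at 193, 211 and 638 and then at 19.6, 49.6 and 94.7 (log2 fold change -2.75, SE 0.59, adjusted p = 0.0334). BCAT2 was at -1.51 (adjusted p = 0.0531), CCL at -1.81 (0.176), FP6 at -1.68 (0.164) and PORA at -1.97 (0.186) without the third 60 min library.

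The 134 genes raised in the first hour were followed into the step, with the 60 min libraries on both sides. Of these, 91 had a positive and 43 a negative value in the step, edgeR called 4 higher and RVE2 lower, DESeq2 called 14 higher and 3 lower, and the median was 0.43. At an unadjusted p below 0.05 there were 51 upward and 16 downward, against 4.81% and 3.8% of all genes. After RVE2, the largest decreases did not pass the test. LNK3, of the LNK family of clock coactivators, was at 869, 1068 and 1100 and then at 267, 323 and 140, against a dark mean of 82.2 (log2 fold change -2.05, SE 0.46, adjusted p = 0.0527). MBF1C, a coactivator known in heat tolerance, was at 494, 656 and 1487 and then at 265, 255 and 134 (-2.0, adjusted p = 0.0475). In both genes the 2 groups did not overlap. RVE1, another morning MYB-like gene that promotes hypocotyl growth, was at 690, 908 and 1096 and then at 570, 268 and 160 (-1.42, adjusted p = 0.213). LNK4 was at 908, 1001 and 2414 and then at 665, 656 and 339 (-1.38, adjusted p = 0.215). GNC, a GATA factor that promotes chlorophyll synthesis, overlapped between groups (228, 345 and 950 against 229, 92.0 and 137). The other 4, AT2G46670, DIP2, HSFA6B and SNZ, lay between -1.59 and -1.36 on the log2 scale. MBF1C was at -1.39 (adjusted p = 0.233), GNC at -0.90, LNK4 at -0.78 and SNZ at -0.81 without the third 60 min library.

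Genes chosen between dark and 30 min, groups that the step did not compare, were also followed for falling back. The spread came from the same fit of all 18 libraries. Between dark and 30 min, 14 genes were called higher (0.0836%) and 0 lower with edgeR, where 163 lower (0.973%) had an unadjusted p below 0.05. In the step, 4 of the 14 had positive and 10 negative values, with a median of -0.37 against -0.01 for all genes, and 0 passed. In edgeR 1 was upward and 4 downward at an unadjusted p below 0.05, and DESeq2 called 0 higher and 2 lower. Besides LNK3, MBF1C and HSFA6B, EPR1 had groups that did not overlap downward. EPR1 (RVE7) is a further MYB-like gene of the clock family and stood at 2263, 2029 and 2584 and then at 1072, 1267 and 1110 (log2 fold change -1.0, SE 0.30, adjusted p = 0.188), still above its dark mean of 355. BBX30, which encodes a microprotein of the B-box family, went from a dark mean of 3.45 to 676, 550 and 252 at 60 min and to 173, 252 and 372 at 150 min, with overlapping groups. ABCI20, which encodes an ABC-type transport protein, lay on the other side at 2807, 2211 and 1020 and then 4620, 5149 and 5953 (log2 fold change 1.38, adjusted p = 0.17), and ABCI21 was at -0.68, or 0.15 without the third 60 min library. The heat shock genes HSP101, HSP70 and AT1G54050 and the dehydration regulator DREB2A lay between -0.36 and 0.13, and RPT2, AT1G64500 and AT3G14200 between -0.38 and 0.32.

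The interval from 30 to 360 min spans the step in libraries that it did not use. All genes had 433 higher (2.59%) and 66 lower (0.394%) in that comparison. All 20 genes raised in the step were called higher, with a median log2 fold change of 4.78 and a range of 1.76 to 7.79, the last being CHS. Of the 5 lowered genes, BBX17 (log2 fold change -2.29, adjusted p = 0.0087) and XTH15 were called lower, all 5 values were negative, and their median was -1.68. Of the 28 further genes that missed 0.01 on the higher side 23 were called higher and all 28 were positive, and of the 12 on the lower side 6 were called lower and 11 were negative.

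**Figure D4:**
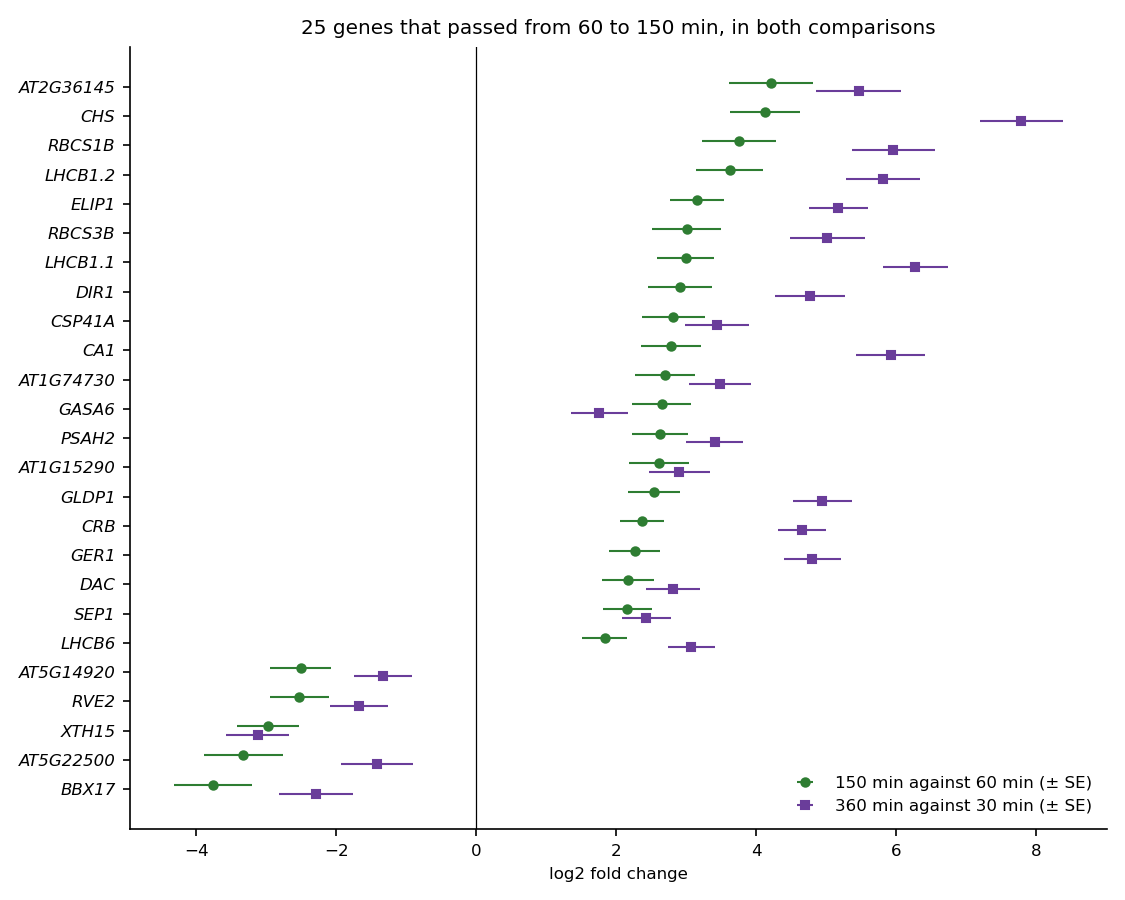
Log2 fold changes (x axis, with bars of 1 SE) of the 25 genes that passed, 1 line per gene, from 60 to 150 min (green circles) and from 30 to 360 min (purple squares). The 2 comparisons have no group in common but come from 1 fit with a shared estimate of the spread. All 20 raised genes lie to the right of 0 and all 5 lowered genes to the left in both. The longer interval also includes changes before 60 min and after 150 min.

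Genes of photosynthesis moved mostly upward as groups. Of the 21 antenna genes tested, 3 rose, 17 were upward at an unadjusted p below 0.05 (4.81% of all genes), and 17 had all later libraries above all earlier ones (7.26% of all genes). All 21 values were positive, with a median of 1.57 against -0.01 for all genes. LHCA1, an antenna protein of photosystem I, was at 2411, 2238 and 5381 and then at 9581, 15980 and 10870 (log2 fold change 1.86, adjusted p = 0.0363). LHCA1 passed without the third 60 min library (2.38, adjusted p = 0.0087). LHCB1.3, another LHCB1 copy, was at 17620, 11980 and 3253 and then at 23900, 46340 and 63370 (2.02, SE 0.57, adjusted p = 0.155), or 1.59 without the third 60 min library. Its replicates lay far apart, without overlap between groups. Its values were lowest where the plastid 23S share was lowest in both groups, and the part of that share was not tested. With the share as a covariate, 9 antenna genes were called higher, against 78 of all 16747 genes, and DESeq2 called 8, against 85.

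Of 29 tested photosystem and electron transport genes, PSAH2 rose, 19 were upward at an unadjusted p below 0.05, 28 were positive, and the median was 1.2. Among all genes, 4.81% were upward at that p, which is the share to set beside each list here. PSBR, a subunit of photosystem II, was at 5578, 9410 and 4727 and then at 16910, 18600 and 13690 (log2 fold change 1.32, adjusted p = 0.209). The leaf ferredoxin gene FD2 was at 3700, 2884 and 4244 and then at 7041, 9549 and 8310 (1.2, adjusted p = 0.32). Of 21 Calvin cycle genes, RBCS1B and RBCS3B rose, 13 were upward at an unadjusted p below 0.05, 19 were positive, and the median was 1.4. RBCS1A stood at 82020, 49340 and 21810 and then at 85770, 143000 and 175500 (1.4, SE 0.55, adjusted p = 0.43), and RBCS2B at 4110, 5915 and 5133 and then at 25840, 25190 and 13960 (2.1, SE 0.55, adjusted p = 0.109). CP12-1, a small regulator of the cycle, was at -0.28. Of 14 tested photorespiration and catalase genes, GLDP1 rose, 8 were upward at an unadjusted p below 0.05, and the median was 1.03. CAT3, a catalase gene whose transcript peaks in the evening, was at 17890, 24070 and 17350 and then at 12400, 11350 and 11960 (-0.73, adjusted p = 0.745).

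For 22 chlorophyll synthesis genes edgeR called 0, 9 were upward at an unadjusted p below 0.05 and PORA was downward, and the median was 0.82, while DESeq2 called 0 higher and 1 lower. The shares of all genes at that p were 4.81% upward and 3.8% downward. CHLH, the large subunit of magnesium chelatase, had a dark mean of 242 and was at 1454, 2071 and 3270 and then at 4695, 5713 and 4726 (log2 fold change 1.15, adjusted p = 0.189), or 1.52 (adjusted p = 0.0631) without the third 60 min library. CRD1 (0.98) and CHLP (0.76) had positive values as well. For 13 carotenoid synthesis genes both tools called 0, 4 were upward at an unadjusted p below 0.05 in edgeR, and the median was 0.53, with ZEP at 0.69 and DXS at -0.69, or 0.28 without the third 60 min library. Of 12 tested flavonoid genes, CHS rose, 11 were positive, and the median was 1.21. F3H, the enzyme that follows chalcone isomerase, was at 795, 654 and 209 and then at 1821, 1760 and 2197 (1.81, adjusted p = 0.18, or 1.41 without the third 60 min library), while PAL1 (0.62) and C4H (0.52) stand at the entry of the pathway. Of 6 photoprotection genes, ELIP1 rose, 5 were positive, and ELIP2 was at 119, 160 and 416 and then at 927, 1247 and 1730 (2.47, adjusted p = 0.0304, or 3.21 and 0.0123 without the third 60 min library). The median of this list was 1.24, or 1.92 without that library.

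**Figure D5:**
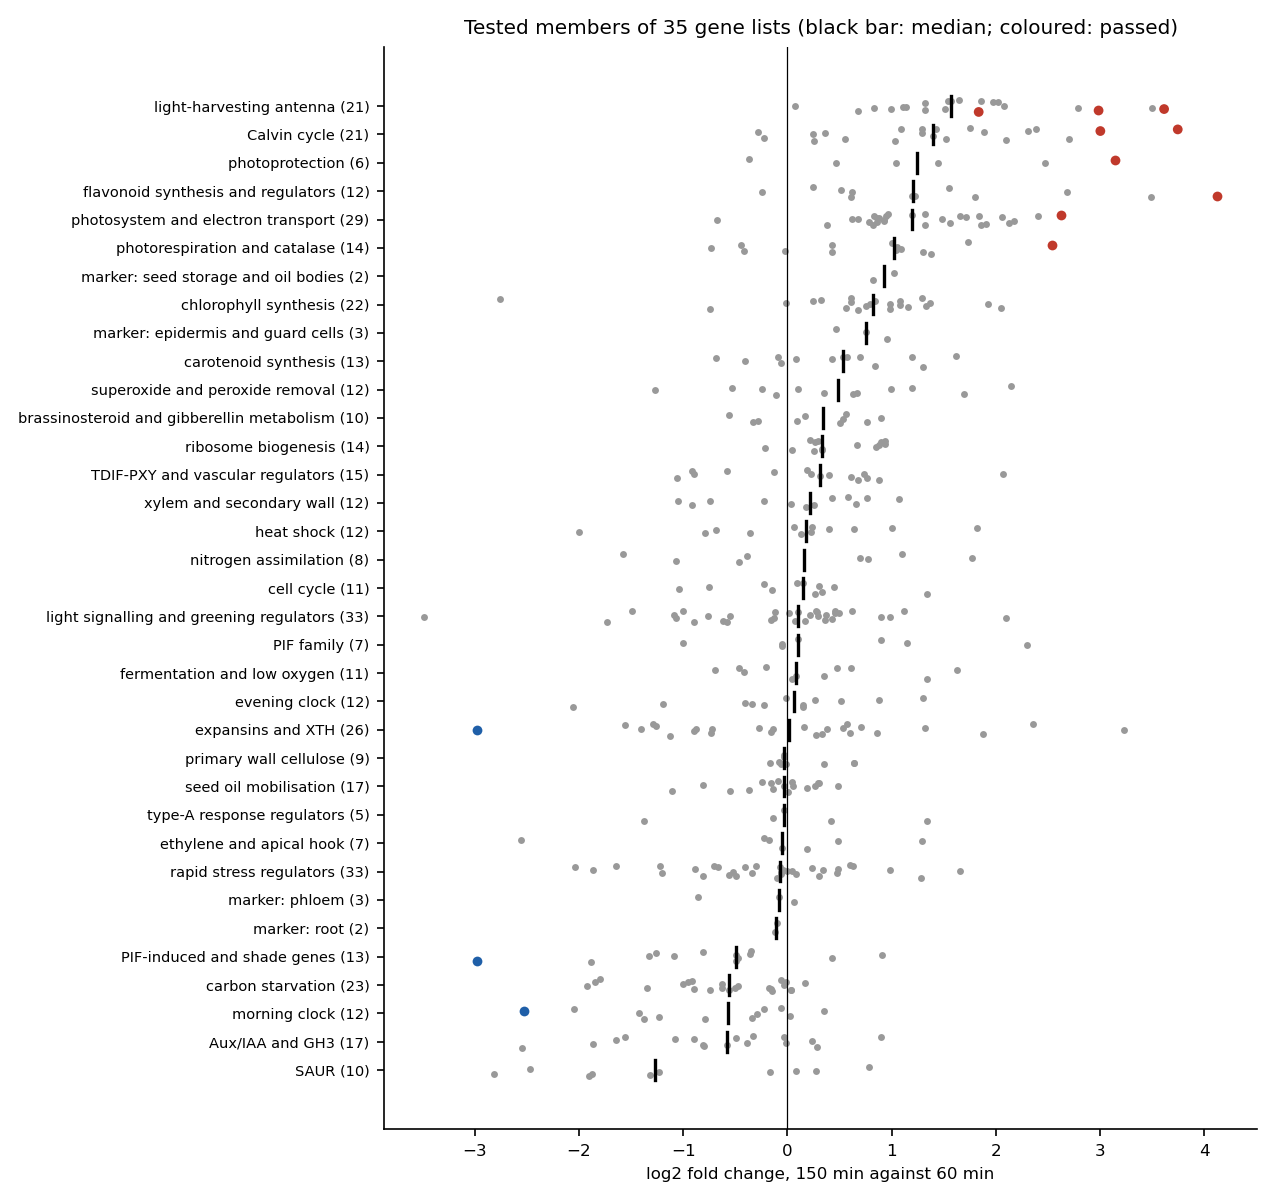
Log2 fold changes from 60 to 150 min of the tested genes of each list, with 1 point per gene (red, rose; blue, fell; grey, did not pass) and a bar at the list's median. The medians of the antenna, photosystem, Calvin cycle, flavonoid, photoprotection and photorespiration lists lie above 1. Those of the morning clock, Aux/IAA, SAUR and carbon starvation lists lie below -0.5. Without the third 60 min library these 4 were, in the same order, -0.41, -0.27, -0.50 and -0.57.

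Of 33 tested light signalling and greening regulators, both tools called 0, 3 were upward and 6 downward at an unadjusted p below 0.05 in edgeR (4.81% and 3.8% of all genes), and the median was 0.10. HY5, the bZIP activator of light-regulated genes, had a dark mean of 243 and stood at 4916, 3357 and 1567 and then at 1981, 3822 and 6276 (log2 fold change 0.30, SE 0.54, adjusted p = 0.961). Its replicates spread widely in both groups and rose with the plastid 23S share. BBX21, a B-box protein that activates HY5, had close replicates that did not overlap, at 2011, 2134 and 2271 and then 1065, 987 and 1015 (-1.06, SE 0.31, adjusted p = 0.173). BBX24 was at -0.15 and BBX28 at -0.62. Of the 7 PIF family genes both tools called 0, 1 was upward at an unadjusted p below 0.05 in edgeR, and the median was 0.10. That gene, PIF7, was at 63.1, 0 and 77.3 and then at 205, 216 and 271 (2.3, SE 0.78, adjusted p = 0.308), picked after its values were seen. PIF4 was at 0.90, PIF1 at 0.10, PIF3 at -0.05 and PIF5 at -1.0, each with overlapping groups. Without the third 60 min library the PIF family median was 1.58 and PIF5 was at 0.47, and the median of the light signalling list was 0.28.

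Genes raised by PIF proteins in darkness or shade were mostly negative in the step. Of 13 tested, XTH15 fell, 11 were negative, and the median was -0.49, or -0.81 without the third 60 min library. IAA19, an auxin-response gene of elongating hypocotyls, had a dark mean of 890.5 and stood at 217, 260 and 127 and then at 84.5, 167 and 91.4 (log2 fold change -0.81, adjusted p = 0.6995). ST2A was at -0.47 and HFR1 at 0.43. Of 12 tested morning clock genes, RVE2 fell, 10 were negative, 5 were downward at an unadjusted p below 0.05 (3.8% of all genes) without overlap between groups, and the median was -0.57. LNK2 (0.36), RVE4 (-0.29) and PRR7 (-0.23) of this list lay nearer to 0, with RVE4 at 0.32 without the third 60 min library. Of 12 evening clock genes both tools called 0, 1 was upward and 1 downward at an unadjusted p below 0.05 in edgeR, and the median was 0.07. ELF4 was at 946, 717 and 81.6 and then at 1199, 1393 and 1678 (1.3, adjusted p = 0.474), and TOC1 was at -0.34. ELF4 was at 0.78 and the median at -0.23 without the third 60 min library.

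Growth genes showed few calls. At an unadjusted p below 0.05 in edgeR, 4.81% of all genes were upward and 3.8% downward, the shares to set beside these lists. For 17 Aux/IAA and GH3 genes both tools called 0, 1 was upward and 2 downward at an unadjusted p below 0.05 in edgeR, 14 were negative, and the median was -0.58, with IAA2 at -0.90 and IAA7 at -0.39. For 10 tested SAUR genes, small auxin-induced growth genes, both tools called 0, 3 were downward at an unadjusted p below 0.05 in edgeR, and the median was -1.27. Their members with the most counts, SAUR50 (0.27) and SAUR14 (0.79), were positive. Of 26 tested expansin and XTH genes, XTH15 fell, 6 were downward and 3 upward at an unadjusted p below 0.05, and the median was 0.01. Without the third 60 min library the medians of the 3 lists were -0.27, -0.50 and -0.09, with IAA2 at -0.27 and IAA7 at 0.34. XTH24 was at 6160, 5434 and 10020 and then at 3268, 3698 and 4680 (-0.89, adjusted p = 0.613).

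The vascular genes that the study was about showed 0 calls in the step. For 12 tested xylem and secondary wall genes both tools called 0, 0 had an unadjusted p below 0.05 in edgeR, and the median was 0.21. XCP2, a protease of differentiating xylem vessels, was at 364, 235 and 482 and then at 342, 448 and 672 (log2 fold change 0.43, SE 0.49, adjusted p = 0.903), and FRA8, of xylan synthesis, was at 0.04. For 15 tested genes of TDIF-PXY signalling and vascular regulation both tools called 0, 2 were upward at an unadjusted p below 0.05 in edgeR (4.81% of all genes), and the median was 0.32. All later libraries lay above all earlier ones in 4 of the 15 and below them in 1, against 7.26% and 5.4% of all genes. CLE44, the ligand gene of the paper, was among the 15 and was not called. Its receptor gene PXL1 had low means of 33.5 normalized counts at 60 min and 38.9 at 150 min (log2 fold change 0.22, SE 0.74, adjusted p = 0.983). BES1, a transcription factor that acts in xylem differentiation, was at 442, 579 and 422 and then at 646, 880 and 875 (0.73, SE 0.30, adjusted p = 0.466), without overlap. For 9 primary wall cellulose genes both tools called 0, 0 had an unadjusted p below 0.05 in edgeR, and the median was -0.03. Without the third 60 min library the medians of these 3 lists were 0.46, 0.09 and 0.18. Xylem is a small part of a whole seedling.

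Markers of the tissues in the seedling were checked. None of the 10 tested of 16 markers of root, phloem, epidermis with guard cells, and seed storage tissue was called by edgeR or had an unadjusted p below 0.05. The summed root markers were 1773 to 2293 normalized counts per library at 60 min and 702 to 2886 at 150 min, with EXPA7, COBL9 and PRP3 at 0 in some library. Phloem markers summed to 238 to 466 and 193 to 422, and epidermal markers to 932 to 2297 and 1155 to 3408. Seed storage and oil body markers summed to 11.8 to 627 and 17.0 to 1596, with SESA4, OLEO1 and OLEO2 at 0 in some library. The part of tissue composition in the results was not tested.

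The filter removed 8925 genes with a count, among them genes with 0 counts in most libraries at 60 min. Of these, 514 had 0 counts in at least 2 libraries at 60 min and counts in all 3 at 150 min, 87 of them with 0 in all 3 at 60 min. The opposite pattern was seen in 89 genes. Outside the plastid 23S RNA, the 60 min libraries held 1999671 to 3456720 counts and the 150 min libraries 2252711 to 9387795, and the part of depth in these numbers was not tested. By counts at 150 min, AT4G28755 came first with 1, 0 and 0 counts and then 706, 1053 and 185, and a dark mean of 121 normalized counts. It overlaps PSAE1, a photosystem I subunit gene, by 436 bases on the opposite strand, and such reads cannot be assigned without strand. AT3G26430, a GDSL lipase gene, had 0 counts in all 3 libraries at 60 min and 178, 23 and 115 at 150 min. Its mean of 170 normalized counts was at least 24.6-fold higher than the level that 3 counts per library would give at 60 min, while its dark mean was 143. AT1G29965, of a ribosomal protein family, had 0, 0 and 2 and then 55, 51 and 72 counts, with a dark mean of 18.7 normalized counts. GAUT10, of the family of pectin-making galacturonosyltransferases, had 0, 0 and 15 and then 182, 108 and 17, with a dark mean of 95.4. AT1G04295 and the seed albumin gene SESA5 had counts of 61 and 62 in 1 library at 60 min, and dark means of 0.73 and 82.6. No test was run on these genes.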

How the data were processed

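Whole-seedling RNA was sequenced from 3 libraries at each of 6 time points. The authors quantified reads with kallisto on the transcripts of the AtRTD2-QUASI reference, and deposited estimated counts, TPM and effective lengths (other values, in bases) per transcript. Strand use, and versions other than DESeq 1.36.0 and edgeR 3.26.8 in the submitters' processing notes, are not given in the sources used here. A deposited table of normalized values with 18 columns was not used. Deposited TPM values were summed per gene, scaled by mean transcript length to the library's estimated counts (lengthScaledTPM) and rounded. Genes with 0 counts in at least 2 of the 3 replicates of any time point were removed, leaving 16747 of 34212. All 18 libraries entered 1 robust quasi-likelihood fit in edgeR 4.0.16 (R 4.3.3, limma 3.58.1) with TMM scaling, Benjamini-Hochberg adjustment over all genes and a threshold of 0.01. DESeq2 1.42.0 was the alternative tool. An exact permutation test of 3 against 3 libraries cannot go below a two-sided p of 0.1 and was not used. The code was tested on simulated counts with a common spread for all genes. Of 99 genes changed by 2 on the log2 scale, 3 were called in the step. Of 90 genes changed by 4, 84 were called, and of 16499 unchanged genes, 1 was. At that spread, most genes with a log2 change of 2 would not be called.

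Genes named are those called in the step, at most 12 per direction by fold among genes whose mean reached 10 normalized counts and whose groups do not overlap, filled up on the lower side in order of p. Then come up to 10 genes that were higher at 60 min and lower in the step, and those called at 30 min. Up to 6 members of a list were added, with none named for some lists, and 6 genes removed by the filter. The raised genes beyond the first 12, and the genes said so beside their values, were chosen after their values were seen. The genes and lists were chosen with earlier results of these data known. Alternatives were DESeq2, library totals with and without plastid 23S RNA, summed estimated counts, 2 other filters, the groups compared only, the replicate number as a block, thinned libraries, 1 library left out, an adjusted p below 0.05, and, added after seeing the data, the 23S share as a covariate.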

Additional observations from a re-analysis of the deposited data

How the results depend on the processing

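All 25 genes kept their sign under every alternative that tested them, 24 of them in thinned libraries. DESeq2 gave 85 higher and 49 lower (66 newly raised, 19 raised further, 40 newly lowered, 5 falling back), with 332 genes called between dark and 60 min, 832 between dark and 150 min, 970 between 30 and 360 min and 56 between dark and 30 min, against 142, 462, 499 and 14. An adjusted p below 0.05 gave 48 higher and 17 lower (39, 9, 14 and 2 in the same classes). The fit on the groups compared only gave 0 higher and 0 lower and 0 in each class (498 and 414 at an unadjusted p below 0.05), and 20, 247 and 7 for 60 min against dark, 360 against 30 min and 30 min against dark. Library totals including plastid 23S RNA, with no TMM, gave 0 higher and 0 lower (58 and 452 at an unadjusted p below 0.05), shifted the median of all genes to -0.55, and gave 1, 4, 0 and 0 in the other comparisons. On that scale AT1G64500 (-0.32), RPT2 (-0.64), HSP70 (-0.23), PIF1 (-0.58), LNK2 (-0.33), SAUR14 (-0.48), SAUR50 (-0.30), FRA8 (-0.54) and XCP2 (-0.64) turned negative. Totals without that RNA gave 12 higher and 3 lower (9 newly raised, 1 newly lowered) and 300 for 360 against 30 min. Without the filter on zeros there were 38 higher and 10 lower (29 newly raised, 9 raised further, 8 newly lowered). Thinned libraries gave 5 newly lowered. With the share of 23S RNA as a covariate, chosen after seeing the data, there were 78 higher and 20 lower (57, 21, 17 and 2), and 281, 760 and 44 for 60 min, 150 min and 30 min against dark. Leaving out 1 of the 6 libraries gave 7 to 16 higher and 0 to 6 lower, 5 to 12 newly raised, 2 to 4 raised further, 0 to 4 newly lowered and 0 to 1 falling back, with 116 to 142, 295 to 550, 428 to 575 and 10 to 24 in the other comparisons. Over these fits ABCI21 ranged from -0.99 to 0.15, DXS from -1.01 to 0.28, PIF5 from -1.43 to 0.47, RVE4 from -0.59 to 0.32 and IAA7 from -0.68 to 0.34, with the positive values without 60 min replicate 3. ACX4 ranged from -0.36 to 0.38, the latter without 60 min replicate 1. The causes were not tested.

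The deviations of same-numbered 60 and 150 min libraries correlated at -0.35, 0.03 and -0.24 across genes. The third 60 min library correlated at 0.34 with the first 150 min library, and the first 60 min library at 0.26 with the third 150 min library. Plastid 23S shares ran in opposite order over the replicate numbers of the 2 groups. These values therefore cannot decide whether replicate numbers pair the samples. With the replicate number as a block there were 18 higher and 3 lower, 0 falling back and 5 genes between dark and 30 min. Depth outside plastid 23S RNA limits what can be seen of genes with few counts, and intervals between 3 and 3 libraries are wide, so that a gene not called may still have differed.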

Other observations

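Carbon starvation genes, which are known to rise in darkness and when sugar runs out, were mostly negative in the step. Of 23 genes, edgeR called 0 and DESeq2 called 0 higher and 3 lower, against 85 and 49 of all 16747 genes with DESeq2. At an unadjusted p below 0.05 in edgeR 6 were downward and 0 upward, against 3.8% and 4.81% of all genes. All 3 later libraries lay below all 3 earlier ones in 8, against 5.4% of all genes tested. In all, 20 were negative, and the median log2 fold change was -0.56. DIN1 stood at 5456, 5611 and 6178 normalized counts at 60 min and at 892, 1240 and 2676 at 150 min (log2 fold change -1.85, SE 0.43, adjusted p = 0.0565), and was picked after its values were seen. DIN2, a beta-glucosidase gene, overlapped between groups at 24010, 15980 and 4572 and then 5418, 9058 and 16910. It rose with the share of plastid 23S RNA in both groups, and the part of that share in its values was not tested. For 17 genes of seed oil mobilisation both tools called 0, 0 had an unadjusted p below 0.05 in edgeR, and the median was -0.03.

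Of 8 nitrogen assimilation genes edgeR called 0 and DESeq2 called 1 higher, 1 was upward and 2 were downward at an unadjusted p below 0.05 (4.81% and 3.8% of all genes), and the median was 0.16. GLU1, the ferredoxin-dependent glutamate synthase that recovers ammonium from photorespiration, was at 515, 808 and 524 and then at 2786, 2186 and 1325 (log2 fold change 1.77, SE 0.42, adjusted p = 0.0708). The groups of GLU1 did not overlap. For 14 ribosome biogenesis genes both tools called 0, 3 were upward at an unadjusted p below 0.05 in edgeR, 13 were positive, and the median was 0.33. For 12 genes that remove superoxide and peroxide, edgeR called 0 and DESeq2 1 higher, 4 were upward at an unadjusted p below 0.05, and the median was 0.49, while CSD1 was at 0.35. For 33 tested rapid stress regulators both tools called 0, 0 were upward and 1 downward at an unadjusted p below 0.05 in edgeR, and the median was -0.07. For 12 tested heat shock genes edgeR called 0 and DESeq2 0 higher and 1 lower, 1 was upward and 1 downward at an unadjusted p below 0.05, and the median was 0.18. In 4 further lists (type-A response regulators, brassinosteroid and gibberellin metabolism, fermentation, and cell cycle) both tools called 0, medians lay between -0.03 and 0.34, and 1 gene upward and 1 downward, both response regulators, had an unadjusted p below 0.05 in edgeR. For 7 tested genes of ethylene and the apical hook both tools called 0, 1 was downward at an unadjusted p below 0.05 in edgeR, and the median was -0.05. Without the third 60 min library the medians were 0.60 for ribosome biogenesis, 0.11 for superoxide and peroxide removal, -0.27 for rapid stress regulators, -0.10 for heat shock and 0.26 for nitrogen assimilation, and those of the 5 lists named last lay between -0.12 and 0.56.

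With the share of plastid 23S RNA as a covariate, chosen after seeing the data, 78 genes of all tested were called higher in place of 20. Among them were 9 antenna, 8 photosystem and 4 Calvin cycle genes in place of 3, 1 and 2, 2 each of the flavonoid and photoprotection lists, and 1 nitrogen assimilation gene. Of the carbon starvation list 2 were called lower. Of the 25 genes named in the report, 3 of the 20 raised genes (15%) and 0 of the 5 lowered genes rose with that share in both groups, and 0 fell with it in both, against 9.69% and 9.07% of all genes tested. Within both groups the share ran opposite to depth outside that RNA, and share and depth cannot be told apart there.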
